A study of Mus musculus with 16 samples.

Results

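The mature miRNAs of mouse cardiac stem/progenitor cells (CSCs) were compared with those of the CSC-derived induced cardiomyocytes (iCMs). The small RNA libraries of 3 CSC and 3 iCM samples were used, which are 6 of the 16 libraries of the series, and 718 of the 1818 miRNA entries had enough counts to be tested. The 1100 entries that did not pass hold at most 0.0268% of the counts of a library, and 56 of them have 0 counts in all libraries. CSCs came from hearts of 12-week-old C57BL/6 mice (C57BL/6J in the methods), sorted as negative for CD45 and CD31 and positive for c-kit and then cultured with serum. The CSC and iCM samples were described as replicates of 1 clone, which the Y-linked genes given below put in doubt. The p-values measure the spread between these samples and not between clones or animals. For iCMs, CSCs formed cardiospheres for 4 days in growth medium, received BMP-4, Activin A, beta-FGF, Wnt11 and Wnt5a until day 8, and were then kept on laminin with DKK1 for up to 14 days. 2 samples of adult cardiomyocytes (aCMs) separated from hearts of C57BL/6 mice (likewise C57BL/6J in the methods), each pooled from 2 hearts, took part in the fit and are given beside the iCM values. They share libraries with every comparison, so their values only show where the adult level lies under the scaling used.

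A miRNA is cut from a hairpin precursor, which can release a mature strand from its 5p arm and another from its 3p arm. The mature strand guides Argonaute to messenger RNAs, mainly through bases 2 to 8, the seed, so miRNAs with the same seed can bind the same sites. Many hairpins lie in introns of protein-coding genes or in long polycistronic transcripts and are made together with them. The classical muscle miRNAs are miR-1 and miR-133, with miR-208 and miR-499 in the heart, and miR-208a, miR-208b and miR-499 lie within the myosin heavy chain genes Myh6, Myh7 and Myh7b.

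The sequences below are those on which the comparison turns, from RefSeq with positions on GRCm38.p6, written 5′ to 3′ with the seed in capitals. They are the muscle miRNAs of the myosin genes, the neighbours miR-133b and miR-206 that moved in opposite directions, 2 leading miRNAs of the imprinted Dlk1-Dio3 locus, the cluster of miR-183, miR-96 and miR-182 that fell, here the miR-183 cluster, and 3 pairs with the same seed whose members moved in opposite directions.
miR-208a-3p: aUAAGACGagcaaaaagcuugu
miR-208b-3p: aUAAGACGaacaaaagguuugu
miR-499-5p: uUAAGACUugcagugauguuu
miR-133b-3p: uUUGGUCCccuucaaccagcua
miR-206-3p: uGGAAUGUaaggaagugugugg
miR-127-3p: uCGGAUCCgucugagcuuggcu
miR-434-3p: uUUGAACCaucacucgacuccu
miR-183-5p: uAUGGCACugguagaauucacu
miR-96-5p: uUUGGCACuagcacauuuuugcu
miR-182-5p: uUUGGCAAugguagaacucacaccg
miR-148a-3p: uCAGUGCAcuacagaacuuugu
miR-148b-3p: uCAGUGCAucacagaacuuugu
miR-10a-5p: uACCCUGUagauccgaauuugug
miR-10b-5p: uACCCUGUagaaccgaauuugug
miR-410-3p: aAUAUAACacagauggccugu
miR-344d-3p: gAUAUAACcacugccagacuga

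miR-208a-3p lies at chr14:54949072-54949093 and miR-208b-3p at chr14:54975710-54975731, both on the minus strand, and miR-499-5p at chr2:155622893-155622913 on the plus strand. miR-206-3p (chr1:20679055-20679076) and miR-133b-3p (chr1:20682834-20682855) lie on the plus strand next to each other. miR-127-3p (chr12:109592888-109592909) and miR-434-3p (chr12:109594565-109594586) lie on the plus strand of the Dlk1-Dio3 locus, as does miR-410-3p (chr12:109743764-109743784). The miR-183 cluster lies on the minus strand, with miR-183-5p at chr6:30169711-30169732, miR-96-5p at chr6:30169506-30169528 and miR-182-5p at chr6:30165962-30165986. miR-148a-3p is at chr6:51269829-51269850 on the minus strand and miR-148b-3p at chr15:103285185-103285206 on the plus strand. miR-10a-5p is at chr11:96317186-96317208 and miR-10b-5p at chr2:74726074-74726096, both on the plus strand and within Hox gene clusters. miR-344d-3p has 3 copies on the minus strand of chromosome 7, the first at chr7:61683127-61683148.

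The CSC libraries held 4089474 to 6203774 miRNA counts and the iCM libraries 5086023 to 9776644. The Spearman correlation across miRNAs was at least 0.967 between libraries of the same group and had a median of 0.595 between CSCs and iCMs. No pair of libraries was a duplicate. Marker genes were read in total RNA of the same samples, in CPM, which adjusts each count for sequencing depth. Kit, which encodes the c-kit of the sort, was at 0 to 0.0836 CPM in the cultured CSCs and at 39.6 to 45.0 CPM in iCMs. Its RNA was thus near 0 in cells described as derived from c-kit-positive ones. The sort came before culture and cloning, so these values do not measure the sorted cells. The Y-linked gene Eif2s3y was at 0.106 to 0.175 CPM in CSCs and at 29.6 to 33.7 CPM in iCMs, Ddx3y was at 0 to 0.0303 and 13.8 to 21.8 CPM, and Xist, the RNA of the inactive X chromosome, was at 562 to 635 and 187 to 210 CPM. The labels say that iCMs derive from CSCs and give no sex. With Y-linked RNA near 0 in the CSC libraries and present in all iCM libraries, it is in doubt whether the iCM libraries come from the same cells as the CSC libraries, and why they differ was not tested. Every fold change below therefore compares the libraries labelled iCMs with those labelled CSCs, and may not compare a line with its own progeny. The cardiomyocyte genes Tnnt2, Myh6, Myh7, Actn2, Nkx2-5 and Ryr2 were each higher in all iCM than in all CSC libraries, as were the endothelial genes Cdh5, Kdr and Tie1, the leukocyte gene Ptprc and the erythroid gene Hbb-bs. In bulk RNA, fewer cells of a type and less RNA per cell cannot be told apart.

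The miRNome of iCMs differed broadly from that of CSCs. With edgeR's quasi-likelihood test, at a Benjamini-Hochberg adjusted p below 0.05 over all 718 miRNAs and a log2 fold change of at least 0.6 in size, 279 miRNAs were up-regulated (38.9%) and 182 down-regulated (25.3%) in iCMs vs CSCs, and 257 were not called. CSC and iCM values did not overlap for 488 miRNAs (68%). The rises were larger than the falls. Called miRNAs that were higher had a median log2 fold change of 5.49, or 4.64 with the 41 that have no counts in a group set at their bound, and those that were lower had a median of -1.68. The split between directions depended on how libraries were scaled. With TMM, the scaling used throughout, 60.5% of calls were higher and the median log2 fold change of all miRNAs was 0.26. With upper quartile scaling 222 were higher and 328 lower, 40.4% of calls were higher and the median was -0.69. Under every alternative run, no miRNA called here was called in the opposite direction. Summed over the tested miRNAs, TMM-scaled CPM came to 1889500 and 1829920 in the 2 aCM libraries and to 751773 to 958787 in the iCM libraries. Where aCM and iCM values in CPM are given side by side below, their order can therefore depend on this scaling.

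**Figure D1:**
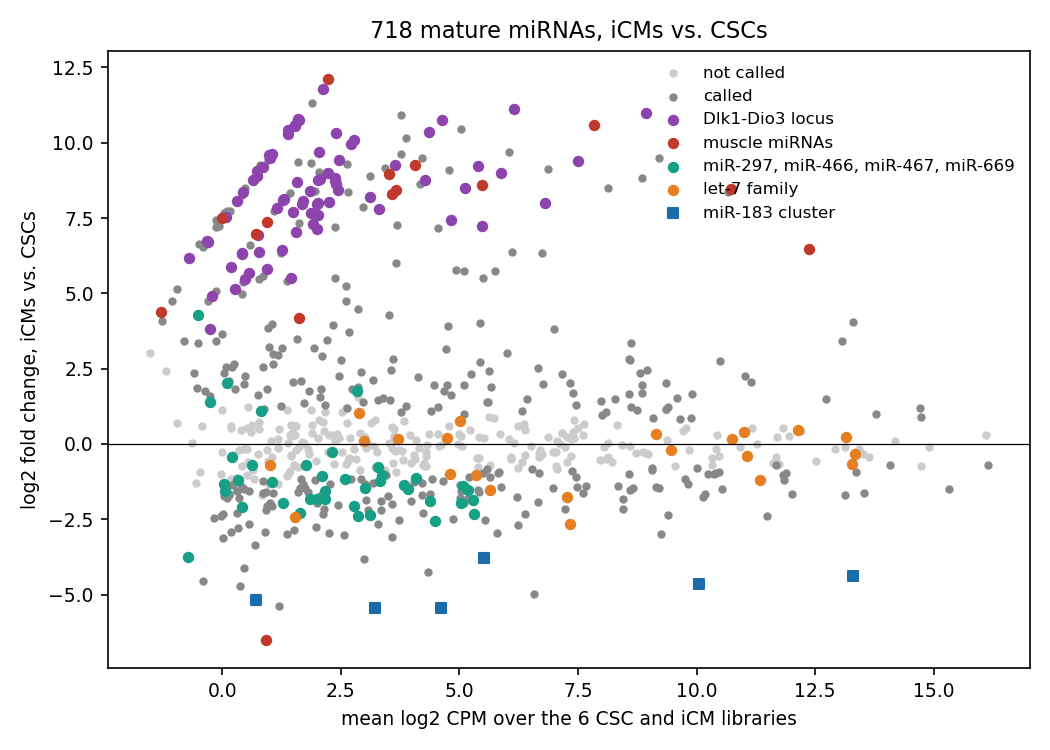
Each point is 1 of the 718 tested miRNAs, with the mean log2 CPM over the 6 CSC and iCM libraries on the x axis and the log2 fold change of iCMs vs CSCs on the y axis; light grey points were not called and the colours mark 5 groups. The 76 miRNAs of the Dlk1-Dio3 locus all lie above 0, the 6 of the miR-183 cluster below it, and among the muscle miRNAs the 1 below 0 is miR-206-3p.

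The muscle miRNAs rose together. Of 15 tested members of the list, 14 were higher in iCMs and 1, miR-206-3p, was lower, with a median log2 fold change of 8.29, against 0.26 over all miRNAs. As a share of all counts they made up 0.0661 to 0.112% of the CSC libraries, 10.6 to 11.7% of the iCM libraries and 33.0 to 33.3% of the aCM libraries. The myosin gene Myh6, which holds miR-208a, rose in the total RNA as well, with 4.92 to 6.42 CPM in CSCs and 2650 to 4594 CPM in iCMs.

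miR-133a-3p, which in mouse restrains cardiomyocyte proliferation and smooth muscle genes, was at 62.1, 62.1 and 163 CPM in CSCs and at 42581, 33021 and 26375 CPM in iCMs (log2 fold change 8.47 ± 0.48 SE, edgeR adjusted p = 1.20e-08). In aCMs it was at 366855 and 288283 CPM. Every iCM library was above every CSC library and below both aCM libraries. miR-1a-3p, which is made from the same transcripts as miR-133a, was at 0.412, 0.173 and 1.28 CPM in CSCs and at 82.3, 381 and 182 CPM in iCMs, against 4347 and 4511 CPM in aCMs (iCMs vs CSCs 8.29 ± 0.72, edgeR adjusted p = 3.82e-07). As for miR-133a-3p, the iCM libraries lay between the CSC and the aCM libraries. By qPCR, a different measure, the study found miR-1 and miR-499 the highest in aCMs of the miRNAs it assayed. Why the miR-1a-3p counts lay far below those of miR-133a-3p here was not tested.

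The miRNAs of the myosin genes were nearly absent from CSCs. miR-208b-3p, of the fetal and slow myosin gene Myh7, was at 3.29, 2.77 and 14 CPM in CSCs and at 5697, 14523 and 11168 CPM in iCMs (log2 fold change 10.58 ± 0.76, edgeR adjusted p = 6.93e-08). In aCMs it was at 181 and 116 CPM, so the 3 iCM libraries lay above both groups. miR-208a-3p, of the adult myosin gene Myh6, which has the same seed, UAAGACG, was at 0.412, 0.519 and 0.233 CPM in CSCs, at 154, 181 and 252 CPM in iCMs and at 337 and 470 CPM in aCMs (8.96 ± 0.49, edgeR adjusted p = 1.09e-08). Of these strands of equal length, the iCM libraries held more counts of miR-208b-3p and the aCM libraries more of miR-208a-3p. Its other arm, miR-208a-5p, had no counts in CSCs and was at 53, 49.7 and 147 CPM in iCMs, at least 568-fold higher. miR-499-5p of Myh7b was at 0.686, 0 and 1.05 CPM in CSCs and at 241, 480 and 465 CPM in iCMs (9.26 ± 0.65, edgeR adjusted p = 6.02e-08), with 759 and 705 CPM in aCMs.

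miR-486b-5p, which lies in the ankyrin gene Ank1 and is abundant in muscle and in red blood cells, was at 474, 616 and 613 CPM in CSCs and at 51738, 60849 and 39944 CPM in iCMs (log2 fold change 6.48 ± 0.28, edgeR adjusted p = 2.49e-09). It made up 5.31 to 6.46% of the iCM libraries and was at 247084 and 308253 CPM in aCMs. miR-486a and miR-486b come from overlapping hairpins on opposite strands, so reads of either may be split between them. The erythroid miRNAs miR-144 and miR-451a rose in the same iCM libraries, and their part in the miR-486b value was not tested.

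miR-206-3p and miR-133b-3p, whose hairpins are neighbours on chromosome 1, moved in opposite directions. miR-133b-3p rose from 2.06, 1.73 and 2.91 CPM in CSCs to 736, 478 and 1420 CPM in iCMs (log2 fold change 8.59 ± 0.56, edgeR adjusted p = 3.37e-08). miR-206-3p, a miRNA known from skeletal muscle, was at 7.0, 11.8 and 9.42 CPM in CSCs and at 0, 0.0963 and 0.148 CPM in iCMs, with 0.46 and 0 CPM in aCMs (-6.50 ± 0.69, edgeR adjusted p = 2.57e-06). It had 200 counts in the CSC libraries against 2 in the iCM libraries, a ratio of 108 with a 95% counting interval of 29.5 to 899, which covers counting error only. The level of miR-206-3p was low in CSCs, and the groups did not overlap.

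**Figure D2:**
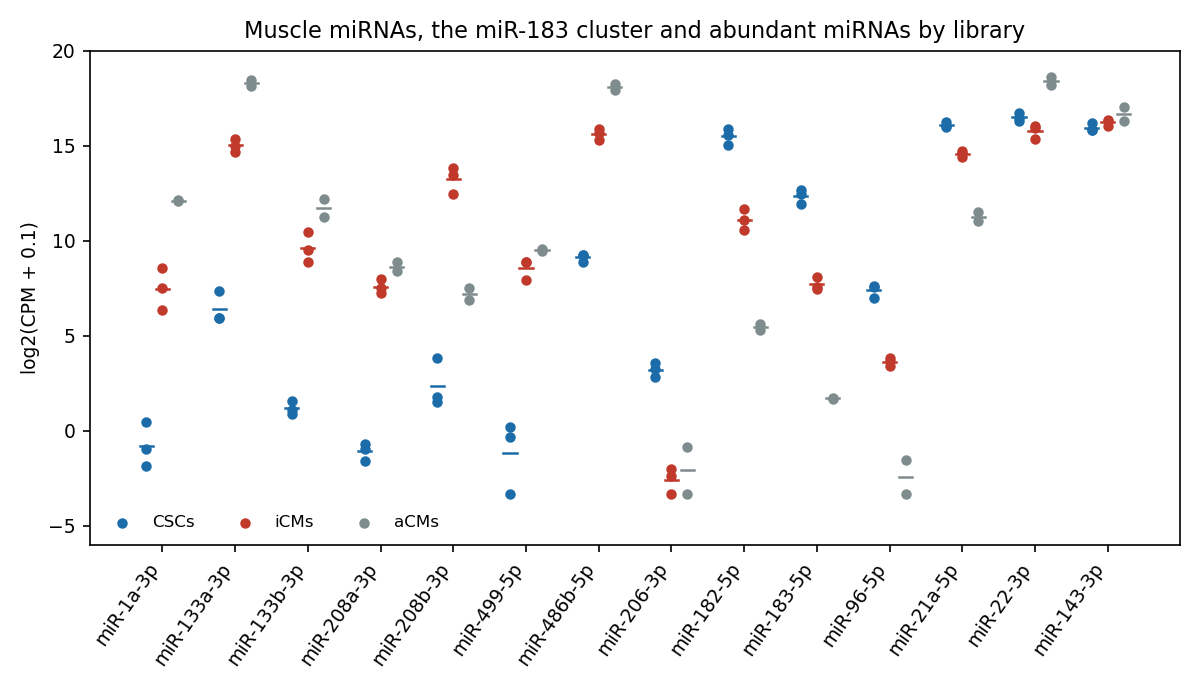
Each point is 1 library, on a scale of log2(CPM + 0.1), with CSCs in blue, iCMs in red, aCMs in grey and the mean of each group as a short line. The 7 muscle miRNAs to the left of miR-206-3p are higher in every iCM than in every CSC library, miR-206-3p and the 3 miRNAs of the miR-183 cluster are lower, and miR-143-3p overlaps between CSCs and iCMs.

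3 further hairpins, miR-335, miR-490 and miR-204, were chosen by the study on these libraries as miRNAs of cardiomyocytes, so their direction is not independent evidence. All 5 tested strands were higher in iCMs. miR-490-3p, which lies in the gene of the cardiac muscarinic receptor, Chrm2, was at 0.275, 0.173 and 0.116 CPM in CSCs and at 514, 311 and 350 CPM in iCMs (log2 fold change 10.91 ± 0.51, edgeR adjusted p = 4.17e-09). miR-204-5p was at 0.412, 0.173 and 0.349 CPM in CSCs and at 228, 173 and 184 CPM in iCMs (9.17 ± 0.46, edgeR adjusted p = 5.09e-09). In aCMs they were at 562 and 526 CPM and at 570 and 701 CPM. miR-335 lies in Mest, a paternally expressed imprinted gene that is active in embryonic mesoderm. miR-335-3p was at 0.275, 0.346 and 1.74 CPM in CSCs and at 1079, 1570 and 971 CPM in iCMs (10.45 ± 0.63, edgeR adjusted p = 1.79e-08), and at 144 and 132 CPM in aCMs. Its 3 iCM libraries lay above the CSC and the aCM libraries, as did those of miR-335-5p, at 770, 2977 and 2411 CPM.

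The largest group that moved was the imprinted Dlk1-Dio3 locus. This region of chromosome 12 holds one of the largest miRNA clusters of mammals, transcribed with the long noncoding RNAs Meg3, Rian and Mirg from the maternal chromosome, and is known to be active in embryonic tissues. Of 111 entries of the locus in the table, 76 were tested and all 76 were higher in iCMs, with no overlap between groups and a median log2 fold change of 8.38, or 7.74 with the 20 members that have 0 counts in CSCs at their bound. The 35 entries that were not tested did not pass the filter, which a miRNA high in iCMs alone can pass, so the count is that of tested members. Together the locus made up 0.0037 to 0.00948% of the CSC, 4.14 to 5.74% of the iCM and 0.0709 to 0.0998% of the aCM counts.

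miR-127-3p was the most abundant miRNA of the locus, at 7.0, 7.78 and 19.5 CPM in CSCs and at 32138, 19726 and 18060 CPM in iCMs (log2 fold change 10.98 ± 0.56, edgeR adjusted p = 5.61e-09). In aCMs it was at 833 and 980 CPM, above every CSC and below every iCM library. miR-434-3p, next to it, was at 0.686, 0.346 and 3.72 CPM in CSCs and at 4197, 3336 and 3695 CPM in iCMs (11.10 ± 0.75, edgeR adjusted p = 4.13e-08), which was the largest rise among miRNAs with a mean log2 CPM over 5. miR-411-5p was at 4.67, 6.92 and 10.9 CPM in CSCs and at 7797, 5284 and 2104 CPM in iCMs (9.39 ± 0.62, edgeR adjusted p = 3.78e-08). The iCM libraries differed among themselves for miR-411-5p more than for miR-434-3p, but none came near the CSC values. miR-136-3p, miR-381-3p and miR-300-3p rose by 9.23, 8.99 and 8.48 on the log2 scale. In total, 6 members had a mean of at least 1000 CPM in iCMs and 17 a mean of at least 100 CPM, while 67 had a mean below 1 CPM in CSCs and the highest CSC mean was 11.4 CPM.

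Tested members that were higher in iCMs lay in both parts of the locus. The 72 members with a RefSeq position span chr12:109563744-109747949 on the plus strand. Members within 10000 bases of each other formed a proximal cluster from miR-770-3p to miR-136-3p, with 20 of 20 tested strands higher and a median log2 fold change of 9.35, and a distal cluster from miR-379-5p to miR-3072-3p, with 49 of 49 higher and a median of 8.06. Members with a CSC mean below 1 CPM, 67 of the 76, passed the filter mainly through other libraries, so these counts do not test the direction. For all 76 members the aCM mean was below the iCM mean. In the total RNA, genes of the locus, looked up after the miRNA values were seen, were higher in iCMs too. Meg3 was at 0.318, 0.273 and 0.614 CPM in CSCs and 110, 139 and 113 CPM in iCMs (log2 fold change 8.29 ± 0.40, edgeR adjusted p = 1.95e-07), and Rian rose by 7.68. The paternally expressed genes of the locus did so as well, with a rise of 11.05 for Dlk1, a Notch-like ligand of fetal progenitors, and of 4.95 for Rtl1, to which miR-127, miR-434 and miR-136 lie antisense. Mirg, the host of the distal cluster, rose by 1.95, from 2.17 to 2.66 CPM in CSCs to 9.31 to 10.2 CPM in iCMs.

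**Figure D3:**
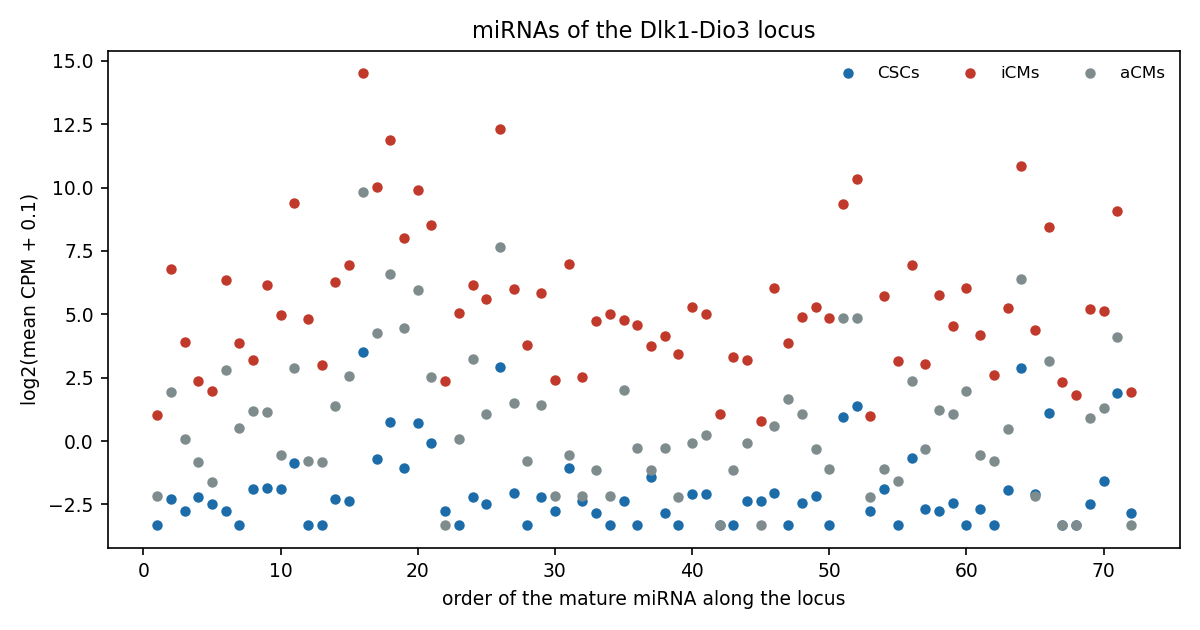
Each position on the x axis is 1 of the 72 mature miRNAs of the Dlk1-Dio3 locus with a RefSeq position, in their order along chromosome 12, and the y axis is log2(mean CPM + 0.1) of 3 CSC (blue), 3 iCM (red) and 2 aCM (grey) libraries. The iCM mean is the highest at each position.

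2 other imprinted regions gave different pictures. All 4 tested miRNAs of the Igf2-H19 locus were higher in iCMs (median log2 fold change 7.5, or 7.21 with members at 0 in CSCs at their bound). miR-675-3p, cut from the fetal noncoding RNA H19, had no counts in CSCs and was at 34.3, 42.0 and 65.2 CPM in iCMs, at least 337-fold higher, and it had no counts in aCMs. miR-483-3p, from an intron of the growth factor gene Igf2, was at 2.06, 1.21 and 2.21 CPM in CSCs, 333, 236 and 230 CPM in iCMs and 2.30 and 1.69 CPM in aCMs (log2 fold change 7.15 ± 0.43, edgeR adjusted p = 1.76e-08). Both were thus high in the iCM libraries and at or near the CSC level in aCMs. The miR-297, miR-466, miR-467 and miR-669 families, most of which lie in an intron of Sfmbt2, an imprinted gene of rodents, went the other way. Of 40 tested members 27 were lower and 3 higher, against 25.3% and 38.9% of all miRNAs, with a median of -1.43. miR-467c-5p fell from 42.3, 59.3 and 63.3 CPM to 8.61, 13.3 and 6.21 CPM (-2.54 ± 0.42, edgeR adjusted p = 0.000165) and miR-669a-5p fell by 2.34. The 3 that were higher were miR-466l-5p, miR-466q and miR-669h-3p, of which miR-669h-3p lost its call under 7 of the alternatives. Members of these families are near-identical repeats whose reads may be split between entries. Sfmbt2 itself, looked up after the miRNA values were seen, fell by 1.58 on the log2 scale in the total RNA, from 4.63, 11.5 and 6.55 CPM to 2.32, 2.87 and 2.39 CPM.

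Abundant miRNAs of CSCs that fell included the miR-183 cluster on chromosome 6, which is known from sensory cells and from proliferating epithelial and tumour cells. All 6 strands fell, and their median log2 fold change was -4.91. miR-182-5p was at 60855, 34053 and 47781 CPM in CSCs, where it made up 4.82 to 7.28% of counts, and at 3233, 2165 and 1501 CPM in iCMs (-4.37 ± 0.35, edgeR adjusted p = 1.67e-07). miR-183-5p was at 5634, 3950 and 6524 CPM in CSCs and at 278, 191 and 178 CPM in iCMs (-4.64 ± 0.33, edgeR adjusted p = 6.02e-08). miR-96-5p fell from 189, 128 and 196 CPM to 14, 12.7 and 10.6 CPM (-3.77 ± 0.37, edgeR adjusted p = 1.26e-06). No iCM library reached a CSC value, and in aCMs the cluster was lower again, with miR-182-5p at 49.9 and 39.3 CPM. The study named this cluster, with miR-296 and miR-298, as miRNAs of CSCs on these libraries, so the direction of that list, 8 of 10 lower, is not independent evidence. Its 2 members that were not called were miR-298-5p, at 5017, 3472 and 4835 CPM in CSCs and 3441, 3125 and 1770 CPM in iCMs (-0.68 ± 0.32, edgeR adjusted p = 0.0818), and miR-296-5p (-0.11 ± 0.33, edgeR adjusted p = 0.782). Both were much lower in aCMs, with miR-298-5p at 21.6 and 11.8 CPM.

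The other deep falls were those of miR-344d-3p and miR-344b-3p (-4.97 and -2.94), miR-125b-1-3p (-3.0), both strands of miR-31 (-2.39 for the 5p and -2.69 for the 3p strand), let-7b-3p (-2.66) and miR-33-5p (-2.53). miR-31-5p was at 7526, 6542 and 5978 CPM in CSCs and at 1607, 1216 and 994 CPM in iCMs (-2.39 ± 0.28, edgeR adjusted p = 6.62e-06). miR-33-5p, which lies in Srebf2 and restrains cholesterol export, fell from 109, 89.7 and 137 CPM to 19.8, 22 and 16.3 CPM (-2.53 ± 0.36, edgeR adjusted p = 4.23e-05). The rule that named these took only miRNAs whose groups did not overlap.

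The most abundant miRNAs of each group included large and small changes. Among the 10 most abundant of CSCs were miR-182-5p (-4.37) and miR-10a-5p (-1.64), and among the 10 of iCMs were miR-133a-3p (8.47), miR-126a-5p (8.36), miR-486b-5p (6.48), miR-181a-5p (4.06) and miR-378a-3p (3.41). Others changed by less. miR-22-3p, an abundant miRNA of heart, was the most abundant entry of CSCs, at 107329, 91257 and 81911 CPM, and was at 68185, 62847 and 41540 CPM in iCMs (log2 fold change -0.70 ± 0.23, edgeR adjusted p = 0.0176). The call was lost without CSCs replicate 1 (-0.60) and without iCMs replicate 3 (-0.53). miR-21a-5p, known from fibroblasts and from dividing and stressed cells, fell from 67146, 77027 and 64636 CPM to 21600, 25084 and 26732 CPM (-1.51 ± 0.22, edgeR adjusted p = 5.44e-05), with 2092 and 2917 CPM in aCMs. In the iCM libraries miR-143-3p was the most abundant entry, at 83876, 82235 and 67856 CPM against 75663, 57350 and 59221 CPM in CSCs. Its groups overlapped and it was not called (0.28 ± 0.24, edgeR adjusted p = 0.309, and -0.66 with upper quartile scaling). miR-92a-3p (-0.73, edgeR adjusted p = 0.0575), miR-351-5p (-0.10) and miR-30d-5p (0.10) were not called either. miR-27b-3p was lower (-0.71) but was not called when no filter on low counts was set.

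Other abundant miRNAs rose. miR-181a-5p, which acts in muscle differentiation and in lymphocytes, was at 3456, 2343 and 1972 CPM in CSCs and at 55647, 51934 and 22277 CPM in iCMs (log2 fold change 4.06 ± 0.37, edgeR adjusted p = 6.26e-07). miR-378a-3p, which lies in the metabolic coactivator gene Ppargc1b, was at 3262, 1920 and 2898 CPM in CSCs and at 34492, 25706 and 25404 CPM in iCMs (3.41 ± 0.26, edgeR adjusted p = 1.34e-07). All 5 tested members of the miR-378 family were higher, and aCMs were above iCMs, at 135825 and 124694 CPM for miR-378a-3p. miR-30a-5p rose from 19748, 15726 and 17620 CPM to 42365, 40197 and 38524 CPM (1.19 ± 0.21, edgeR adjusted p = 0.000258), but its rise was 0.24 and not called with upper quartile scaling. In the miR-30 family, 6 of 11 tested members were higher and 2 lower, beside 38.9% and 25.3% of all miRNAs. With upper quartile scaling 0 were higher and 3 lower, so no direction is given for the family.

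Members with the same seed did not always move together. miR-148a-3p rose from 20.2, 15.9 and 31.3 CPM in CSCs to 19092, 15579 and 14016 CPM in iCMs (log2 fold change 9.49 ± 0.40, edgeR adjusted p = 2.49e-09). miR-148b-3p, with the same seed, CAGUGCA, fell from 2928, 2160 and 2459 CPM to 682, 1040 and 944 CPM (-1.50 ± 0.27, edgeR adjusted p = 0.000302). Summed over the 3 miRNAs with this seed, the counts rose by 2.50 ± 0.24 (edgeR adjusted p = 3.53e-07), so the family total rose while its main CSC member fell. For the seed ACCCUGU the sum fell. miR-10b-5p, of the Hoxd cluster, rose from 13.5, 9.51 and 23.1 CPM to 4331, 4666 and 7895 CPM (8.51 ± 0.55, edgeR adjusted p = 2.79e-08), while miR-10a-5p, of the Hoxb cluster, fell from 19815, 18605 and 24807 CPM to 6272, 6571 and 7408 CPM (-1.64 ± 0.25, edgeR adjusted p = 8.86e-05). Their sum fell by 0.84 on the log2 scale (edgeR adjusted p = 0.0171). The members of the 2 Hox clusters were at levels of the same order in iCMs, where CSCs had almost only miR-10a-5p.

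In the third pair, miR-344d-3p, of chromosome 7, was at 871, 432 and 434 CPM in CSCs and at 28.9, 18.6 and 7.98 CPM in iCMs (log2 fold change -4.97 ± 0.53, edgeR adjusted p = 2.84e-06). miR-410-3p of the Dlk1-Dio3 locus, with the same seed, AUAUAAC, was chosen after its values were seen. It was at 2.61, 3.11 and 5.00 CPM in CSCs and at 406, 659 and 557 CPM in iCMs (7.22 ± 0.45, edgeR adjusted p = 2.13e-08). The sum of the seed family did not pass the test (-0.11 ± 0.36, edgeR adjusted p = 0.811). The difference of the sum was smaller than its SE, while the CSC counts were mostly of miR-344d-3p and the iCM counts mostly of miR-410-3p.

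Over all seeds, 505 families with a RefSeq sequence were tested, and 207 were higher (41%) and 118 lower (23.4%) in iCMs. These shares are close to those of single miRNAs, and most families have 1 tested member. Of the 63 families with at least 2 tested members, 28 were higher and 17 lower, and 13 had members called in both directions. The seed of miR-208a and miR-208b rose by 10.49 ± 0.73, that of miR-181 by 3.30 ± 0.32, and that of miR-132 and miR-212 by 2.38 ± 0.41. The seed of miR-29a, miR-29b and miR-29c, which target collagen and other matrix genes, fell by 1.02 ± 0.25, and UAUACAA, shared by 3p strands of let-7 and miR-98, fell by 2.12 ± 0.29. The let-7 seed itself, GAGGUAG, summed over 11 tested members, did not pass the test (-0.25 ± 0.25, edgeR adjusted p = 0.393).

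Families linked to proliferation and developmental timing gave mixed results. let-7, which is known to rise as cells leave the embryonic state, had 7 of 22 tested members lower and 1 higher, let-7c-1-3p, whose call was lost with all 3 other scalings, against 25.3% of all miRNAs lower, and its median log2 fold change was -0.26. With upper quartile scaling 15 of the 22 were lower and the median was -1.21. The 4 members of smallest p, all lower, were let-7b-3p, let-7c-2-3p, let-7a-2-3p and let-7e-3p. These are 3p strands, which do not carry the let-7 seed. let-7b-5p fell from 5025, 2649 and 4541 CPM to 1755, 1300 and 2218 CPM (-1.21 ± 0.30, edgeR adjusted p = 0.00344), while let-7i-5p and let-7a-5p were not called (0.25 and 0.45). The miR-17/92 cluster and its paralogues, which promote the cell cycle, had 5 of 23 members higher and 2 lower, shares below the 38.9% and 25.3% of all miRNAs. The median of this list was 0.24 and became -0.72 with upper quartile scaling. Its 3 loci are given apart, for the strands with a RefSeq position. In the chromosome 14 cluster of miR-17 and miR-92a, 1 of 11 such strands, miR-18a-3p, was lower and 10 were not called. The other member that was lower was miR-19a-5p, a strand of the same cluster with no position in the RefSeq table used, at 3.71, 8.99 and 5.12 CPM in CSCs and 1.12, 2.79 and 1.77 CPM in iCMs (-1.59 ± 0.48, edgeR adjusted p = 0.0108, and a call lost without CSCs replicate 2, at -1.17). In the paralogous cluster on the X chromosome, 5 of 7 were higher and the other 2, miR-19b-3p and miR-92a-3p, are also encoded on chromosome 14. In the miR-106b/25 cluster on chromosome 5, the 6 strands had log2 fold changes of -0.47 to 0.43 and were not called. miR-363-3p of the X-linked cluster was at 0, 0 and 0.116 CPM in CSCs and at 26.8, 91.1 and 8.43 CPM in iCMs. It had 1 count against 1171, a ratio of 1084 with a 95% counting interval of 194 to 42834, which covers counting error only. miR-20b-5p of the same cluster was at 9.89, 35.0 and 4.14 CPM in iCMs, and iCMs replicate 2 was the highest for both.

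In the X-linked group from miR-450b to miR-322, which accompanies muscle differentiation, 6 of 13 strands were higher and 3 lower, shares near the 38.9% and 25.3% of all miRNAs. miR-322-5p fell from 9716, 4806 and 8420 CPM to 2037, 3140 and 2020 CPM (-1.67 ± 0.31, edgeR adjusted p = 0.000399), while miR-450a-5p rose from 239, 203 and 268 CPM to 679, 1050 and 1051 CPM (1.97 ± 0.31, edgeR adjusted p = 0.000102) and miR-542-5p rose by 2.73. The other 2 strands that were lower were miR-503-5p (-0.93) and miR-450b-5p (-0.80), which lost their calls in 3 and 4 of the 6 fits with 1 library left out. Of 7 tested strands of miR-34, a target of p53, and miR-449, 2 were higher and 4 lower. miR-34a-5p rose from 0.824, 1.04 and 1.28 CPM to 20.9, 27.5 and 37.1 CPM (4.73 ± 0.42, edgeR adjusted p = 4.32e-07) and was at 368 and 539 CPM in aCMs. The other higher strand, miR-449a-5p, rose by 1.47 with groups that overlapped. miR-34c-5p fell from 1714, 2094 and 2455 CPM to 679, 654 and 636 CPM (-1.67 ± 0.31, edgeR adjusted p = 0.000374). miR-221 and miR-222, known from proliferating vascular cells, were lower in 4 of 4 strands, of which miR-222-3p lost its call in 3 of those 6 fits, and miR-99b, let-7e and miR-125a on chromosome 17 in 4 of 6. By chromosome, looked up after the values were seen, 78 of 88 miRNAs placed on chromosome 12 were higher and 15 of 21 placed on chromosome 15 were lower, against 38.9% and 25.3% over all miRNAs. Of the 78 on chromosome 12, 72 are the members of the Dlk1-Dio3 locus given above, so that count mostly repeats the locus.

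The remaining families each changed by a few members. miR-130b and miR-301b, which are neighbours, were higher in all 4 strands, with miR-130b-3p at 12.5, 10.7 and 12.6 CPM in CSCs and 934, 1172 and 775 CPM in iCMs, against 12.4 and 7.23 CPM in aCMs (6.33 ± 0.38, edgeR adjusted p = 1.79e-08). The 4 strands of the paralogues miR-130a and miR-301a had log2 fold changes of -0.70 to 0.26 and were not called. miR-132 and miR-212 were higher in 4 of 4 strands and miR-218 in 2 of 3. In the list of miR-99, miR-100 and miR-125 7 of 11 members were lower and 3 higher, the 3 being both strands of miR-99a and miR-125b-2-3p, of which miR-99a-3p and miR-125b-2-3p lost their calls with upper quartile scaling. Of all miRNAs, 25.3% were lower and 38.9% higher. miR-210, the miRNA of hypoxia, had 1 of 2 strands lower, miR-210-5p, whose call was lost without CSCs replicate 2 (-0.94) and without iCMs replicate 2 (-1.59), and miR-210-3p was not called (0.14, and -0.073 with library totals). No member of the 22 entries of the embryonic stem cell list, miR-290 to miR-295, miR-302 and miR-367, passed the filter.

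**Figure D4:**
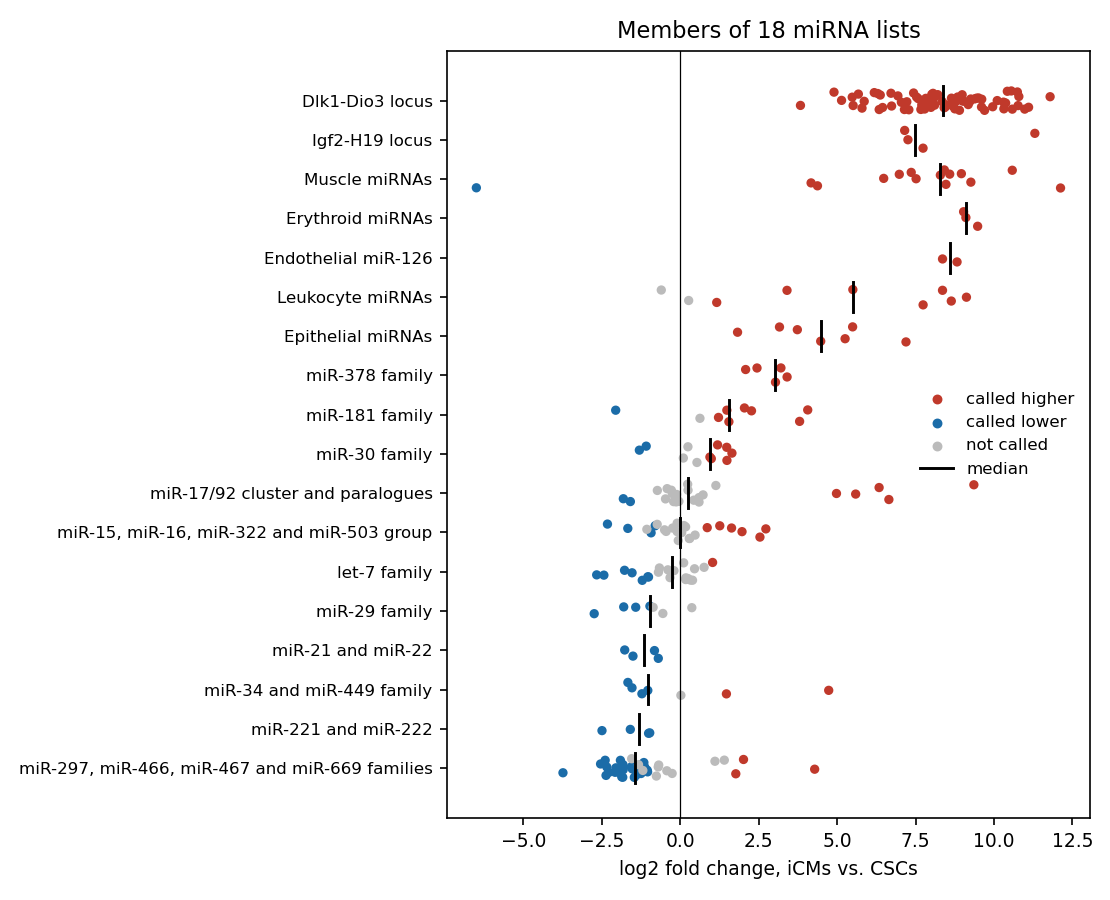
Each point is a tested miRNA of 1 of 18 lists, with its log2 fold change of iCMs vs CSCs on the x axis; red points were called higher, blue points lower and grey points were not called, and the black line is the median of the list. The Dlk1-Dio3, Igf2-H19 and erythroid lists lie wholly at or above 3.83, and the muscle list does so but for miR-206-3p at -6.50. The let-7, miR-17/92 and miR-15/16 lists have medians around 0, with members of the miR-17/92 list up to 9.36.

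miRNAs of cell types other than cardiomyocytes rose in the same iCM libraries. miR-126a-3p, which marks endothelium and lies in Egfl7, was at 18, 17.5 and 30.7 CPM in CSCs, at 7748, 11518 and 10798 CPM in iCMs and at 21065 and 25087 CPM in aCMs (log2 fold change 8.82 ± 0.39, edgeR adjusted p = 2.49e-09). With its 5p strand it made up 3.69 to 5.10% of iCM counts against 0.00995 to 0.0233% of CSC counts. The aCM share was 3.52 and 4.87%, near that of iCMs although the scaled CPM were higher in aCMs. In the total RNA the endothelial genes Cdh5, Kdr and Tie1 were at 244 to 249, 111 to 129 and 203 to 301 CPM in iCMs and at most 0.201, 0.0585 and 0.0669 CPM in CSCs, and Pecam1, the CD31 of the sort, was at 1.44 to 2.54 CPM in CSCs and 356 to 432 CPM in iCMs. Egfl7 was at 3.24 to 5.96 CPM in CSCs and at 143 to 194 CPM in iCMs. Cdh5, Kdr and Tie1 were thus near 0 in CSCs, Pecam1 and Egfl7 were low there, and all were high in iCMs.

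Of 9 tested leukocyte miRNAs 7 were higher, against 38.9% of all miRNAs, with a median log2 fold change of 5.50, or 4.83 at the bound. miR-142a-5p, of blood cells, was at 3.16, 3.98 and 8.72 CPM in CSCs and at 2224, 5011 and 1736 CPM in iCMs (9.12 ± 0.62, edgeR adjusted p = 4.45e-08), above the 178 and 263 CPM of aCMs, and miR-223-3p, of myeloid cells, was at 0.275, 0.346 and 0.116 CPM in CSCs and at 39.7, 132 and 76.7 CPM in iCMs. Ptprc, which encodes CD45, was at 0 to 0.0585 CPM in CSCs and at 20.03, 45.8 and 9.18 CPM in iCMs. iCMs replicate 2 was the highest iCM library for Ptprc, miR-142a-5p and miR-223-3p, but the macrophage genes C1qb (15.4, 19.01 and 39.4 CPM in iCMs) and Lyz2 (28.2, 18.97 and 64.0 CPM) were highest in iCMs replicate 3. All 3 tested erythroid strands rose. miR-144-3p was at 0.412, 1.21 and 1.63 CPM in CSCs and at 458, 877 and 503 CPM in iCMs (9.10 ± 0.57, edgeR adjusted p = 2.23e-08), with 12.2 and 7.71 CPM in aCMs, and miR-451a was at 14.4, 77.2 and 81.6 CPM in iCMs. The globin gene Hbb-bs was at 0 to 0.292 CPM in CSCs, at 1853, 7719 and 8510 CPM in iCMs and at 10.4 and 5.65 CPM in aCMs, so iCMs replicate 1 was the lowest iCM library for miR-144-3p, miR-451a and Hbb-bs. Of 14 epithelial entries 7 were tested, and all 7 were higher in iCMs. miR-200a-3p was at 0.275, 1.04 and 0.698 CPM in CSCs and 31.4, 38.1 and 21.3 CPM in iCMs, and miR-205-5p at 0.686, 0.173 and 0.233 CPM and 70.0, 87.4 and 12.7 CPM. Leukocyte, erythroid and epithelial members near 0 in CSCs passed the filter through other libraries, so these counts of members do not test the direction. These markers moved with every rise described above, and their part in those rises was not tested. The mesenchymal list of miR-199 and miR-214 had 1 of 6 members higher and 1 lower, and the smooth muscle list of miR-143 and miR-145 had 2 of 5 higher, none of them with upper quartile scaling. Over all miRNAs 38.9% were higher and 25.3% lower, so the smooth muscle share is near that of all miRNAs.

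The 2 arms of a hairpin are made in equal numbers, so for strands encoded at a single locus the ratio of 5p to 3p is set after transcription. The log2 ratio of the arms, at a pseudocount of 2 CPM, was tested with limma for 136 hairpins with both arms at a mean of at least 5 CPM, and a shift was called for a difference of at least 1 with an adjusted p below 0.05. It shifted to the 5p arm in 22 hairpins (16.2%) and to the 3p arm in 21 (15.4%). Several of the larger shifts were those of hairpins nearly absent from CSCs, such as miR-127 (-4.95) and miR-148a (-4.11), whose minor arm in CSCs lies below the pseudocount, so that the ratio there depends on it. Of 90 hairpins whose arms sum to at least 50 CPM in each group, a set chosen after the data were seen, 13 shifted to 5p and 9 to 3p.

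Among these 90 hairpins, the following were chosen after their values were seen. The largest shifts were those of miR-486b and miR-199b. In miR-486b the log2 ratio of 5p to 3p was 7.47, 7.67 and 8.11 in CSCs and 11.60, 11.87 and 12.41 in iCMs (difference 4.21 ± 0.34, limma adjusted p = 3.49e-06), where the 3p strand was at 0.686, 1.04 and 0.233 CPM in CSCs, below the pseudocount. In miR-199b it was -10.18, -10.33 and -9.06 in CSCs and -5.80, -6.29 and -5.49 in iCMs (3.997 ± 0.37, limma adjusted p = 9.75e-06). miR-199b-5p rose from 10.02, 5.53 and 19.9 CPM to 148, 114 and 313 CPM, while miR-199b-3p was not called (-0.16). In miR-322 the log2 ratio of 5p to 3p was 2.44, 2.94 and 2.46 in CSCs and 0.44, 0.59 and 0.67 in iCMs (difference -2.05 ± 0.26, limma adjusted p = 9.02e-05). The 5p strand fell while miR-322-3p did not pass the test (0.30). In miR-450b it went from 5.84, 6.11 and 5.98 to 4.17, 4.42 and 3.63 (-1.90 ± 0.28, limma adjusted p = 0.000234). In miR-99b it rose from 4.41, 4.10 and 4.44 to 6.04, 6.10 and 5.95 (1.72 ± 0.24, limma adjusted p = 0.000204), and in miR-30b from 6.61, 6.69 and 6.53 to 8.07, 8.50 and 8.40 (1.71 ± 0.25, limma adjusted p = 0.000273). As these 4 and the 2 before them were chosen for their shifts, the lack of overlap between their groups is no separate result. Replicates of these 4 hairpins differed by less than 1 on the log2 scale. A shift was also called for miR-199a (1.90), whose 3p strand has the same sequence as that of miR-199b, so the 3p reads of both cannot be assigned to either hairpin.

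For 112 pairs of a miRNA and the gene it lies in, both were tested, the gene in total RNA of the same cells. Among all 20254 tested genes, 5254 were higher (25.9%) and 4080 lower (20.1%), and of the 51 host genes 24 were higher, 9 lower and 18 not called. In 37 pairs, of 22 host genes, miRNA and host were both higher, and in 10 pairs, of 6 host genes, both were lower. Myh7 was at 0.552, 0.197 and 0.497 CPM in CSCs and 1146, 2246 and 871 CPM in iCMs (log2 fold change 11.76 ± 0.60, edgeR adjusted p = 2.61e-07), beside the 10.58 of miR-208b-3p. Mest rose by 10.08 beside 10.45 for miR-335-3p, and Egfl7 by 5.29 beside 8.82 for miR-126a-3p. H19 rose by 15.93 and Igf2 by 6.12, beside their miRNAs miR-675 and miR-483.

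Of the pairs that fell together, Srebf2, a regulator of cholesterol synthesis, fell by 1.62 beside miR-33-5p, Wwp2 by 1.52 beside miR-140-3p (-1.70), and Copz1 by 1.24 beside miR-148b-3p (-1.50). In others the host stayed behind. Trpm3, the host of miR-204, was at 2.09, 0.955 and 1.81 CPM in CSCs and 2.59, 1.36 and 2.33 CPM in iCMs (0.37 ± 0.42, edgeR adjusted p = 0.498), while miR-204-5p rose by 9.17. Ptprn2 (-0.28, edgeR adjusted p = 0.624) and miR-153-3p (7.22) differed likewise, and Gabre (0.34, edgeR adjusted p = 0.251) was not called while miR-452-5p fell by 1.91. Clcn5 was the only host called lower with miRNAs called higher, in 5 pairs. It went from 28.5, 41.7 and 25.4 CPM to 21.1, 20.5 and 19.4 CPM (-0.65 ± 0.24, edgeR adjusted p = 0.0464) while miR-501-3p rose by 1.89. Whether transcripts outside the annotated host gene carry these hairpins was not tested.

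**Figure D5:**
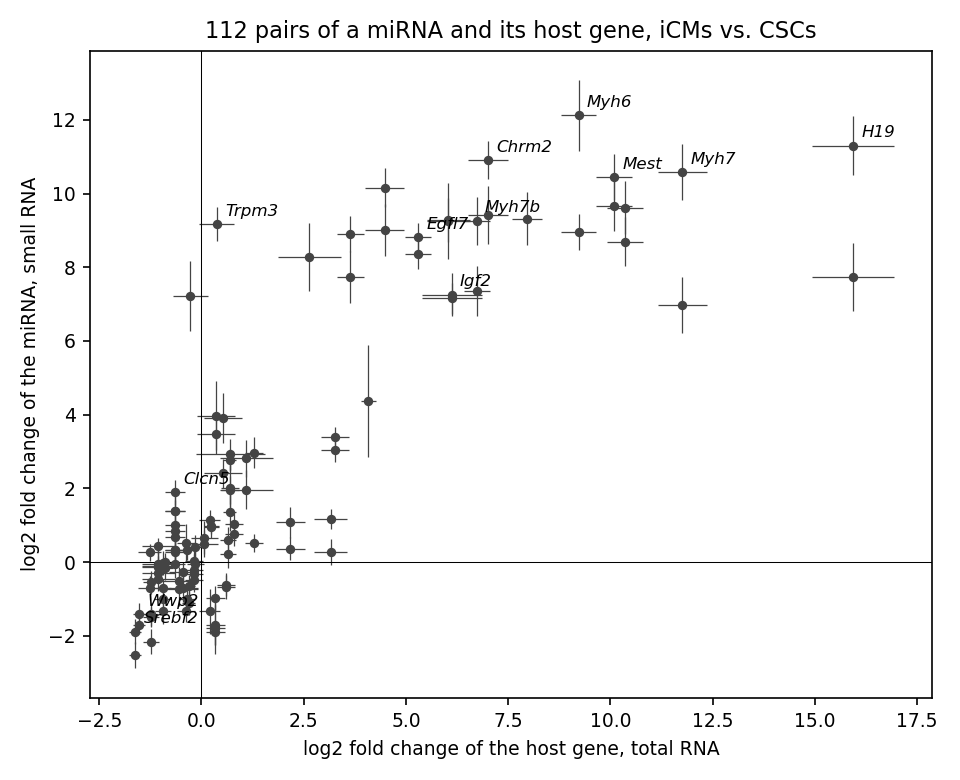
Each point is 1 of 112 pairs, with the log2 fold change of the host gene in total RNA on the x axis and that of the miRNA in small RNA on the y axis, both for iCMs vs CSCs, and bars of 1 SE. Myh6, Myh7, Mest, Chrm2, Egfl7, Igf2 and H19 lie high on both axes, Srebf2 and Wwp2 low on both, and Trpm3 lies near 0 on the x axis with its miRNA at 9.17.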

How the data were processed

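Small RNA of 3 CSC, 3 iCM and 2 aCM samples was sequenced by the study in single reads of 50 cycles after TruSeq small RNA library preparation. The authors trimmed reads with Cutadapt, assigned them with iSMART to miRBase and deposited raw counts per mature miRNA. They normalized them with DESeq2 1.28.1 on R 4.0.2. For total RNA of the same samples, after ribosomal depletion, the authors deposited estimated counts per gene from Strand NGS with Ensembl genes on mm10, of which 51.4% were not whole and were rounded. How reads with more than 1 matching miRNA were counted is not given in the sources used here.

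Counts were filtered with filterByExpr, scaled by TMM and tested with the quasi-likelihood test of edgeR 4.0.16 on R 4.3.3, fitted to all 8 libraries of an assay. No library was left out. p-values were adjusted over all features by Benjamini and Hochberg, and CPM are TMM-scaled. Arm ratios used limma 3.58.1. Where a group had 0 counts, the smallest fold that 3 counts over that group would give is printed. Depth is 4089474 to 9776644 counts per CSC or iCM library, and precision is given as standard errors. 1545 entries, with 68.1% of counts, matched a RefSeq mature sequence, and seeds and positions cover these alone. The steps were tested on simulated data.

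Named miRNAs follow a rule that takes the 15 largest rises and 10 deepest falls without overlap whose mean log2 CPM reaches 5, the 10 most abundant of each group, up to 4 of smallest p per list with members called against the list, other arms and host pairs. The members, lists, host pairs and rule were chosen with earlier results of these data known. Alternatives were DESeq2 1.42.0, 3 other scalings, 2 other filters, other call rules, the 6 libraries alone, a replicate block, other arm-ratio settings and leaving out each library.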

Additional observations from a re-analysis of the deposited data

How the results depend on the processing

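The number of miRNAs that were lower moved from 182 to 328 with upper quartile scaling, and the number that were higher from 279 to 183 with a filter of 10 CPM in 3 libraries, under which 464 miRNAs were tested. Under the other alternatives the counts stayed within 1.5 times. They were 273 higher and 200 lower with DESeq2 size factors, 264 and 215 with library totals, 269 and 191 with DESeq2, 346 and 189 with no filter, and 245 and 174 with the 6 libraries alone. Leaving out 1 library gave 263 to 284 higher and 151 to 173 lower miRNAs, 188 to 200 and 105 to 112 seed families, 18 to 26 and 18 to 24 arm shifts to 5p and 3p, and 20 to 23 and 8 to 11 host genes. The median log2 fold change of all miRNAs was 0.26 with TMM, 0.16 with DESeq2 size factors, 0.05 with library totals and -0.69 with upper quartile scaling. The cause of the shift was not tested.

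Arm shifts fell to 8 to 5p and 6 to 3p with both arms at 50 CPM or more, and to 13 and 9, as chosen after seeing the data, with arms summing to 50 CPM in each group, where fewer hairpins were tested. Log2 fold changes near 0 changed sign. That of miR-30d-5p became -0.0014 with DESeq2 size factors and with DESeq2, -0.13 with library totals and -0.84 with upper quartile scaling. That of miR-210-3p became -0.073 and -0.80 with the last 2 of these. With upper quartile scaling, miR-143-3p was at -0.66, miR-143-5p at -0.11, miR-26a-5p at -0.039 and miR-192-5p at -0.12. miR-351-5p ranged from -0.39 to 0.21 with 1 library left out and was above 0 without CSCs replicate 1 and without iCMs replicate 3 (0.14).

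Same-numbered CSC and iCM libraries had correlations of deviations of 0.17, 0.04 and 0.20, and those with different numbers had -0.27 to 0.06. The main fit assumed no pairing by number, and whether equal numbers mark pairs was not tested. With the replicate number as a block, 247 miRNAs were higher and 179 lower, with 184 and 108 seed families, 22 and 21 arm shifts, and 25 and 8 host genes. miRNAs below the filter cannot be compared at this depth.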
